A study of Homo sapiens and Mus musculus with 99 samples.

Results

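The early growth response (EGR) transcription factors were followed through every group of the series. The members were the human genes EGR1, EGR2, EGR3 and EGR4, found by symbol in 6 count tables of lung epithelial lines, and the mouse genes Egr1, Egr2, Egr3 and Egr4, found by gene identifier in 7 tables of mouse lung epithelial cells. They were 4 of 57820 human and 4 of 55401 mouse gene identifiers, 8 genes in all, and were chosen by name, with no measured value in the rule.

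RNA was sequenced from 99 libraries in 13 experiments, each with its own mock group given Dulbecco's phosphate-buffered saline (DPBS). The human lines were NCI-H1437 and NCI-H292, established epithelial lines from non-small cell lung cancer, harvested after 4 h. Mouse lung epithelial cells were taken 6 h after dosing through the nose. The stimuli were an extract of the mould Alternaria alternata (ALT), the pore-forming proteins Aeg-S and Aeg-L of that mould alone or combined (Aeg-S/L), and the pore-forming proteins Lysenin, PlyA2EryB and LSL. Extracts labelled WT, aegs KO and aegl KO came with or without a knockout of one Aeg gene. Experiment H1437-1 held DPBS, ALT and ALT with Tra, 3 libraries each; the deposited table's name gives a MEK inhibitor, and the labels do not spell Tra out. H1437-2 held DPBS, Aeg-S, Aeg-L, Aeg-S/L and Aeg-S/L with Tra. H1437-3 and H292-2 held DPBS, Aeg-S/L, and Aeg-S/L with BAPTA-AM, a calcium chelator that enters cells, or with EGTA, a calcium chelator that stays outside. H1437-4 and H292-1 held DPBS and the WT, aegs KO and aegl KO extracts. In the mouse, Lung1 held DPBS and ALT (3 libraries each), Lung2 held DPBS, Aeg-S, Aeg-L and Aeg-S/L, and Lung3 held DPBS and the 3 extracts, none with a genotype in the labels. Lung4 (wild type) and IL33KO2 (IL-33 knockout) held DPBS, Lysenin, PlyA2EryB and LSL, IL33KO1 (IL-33 knockout) held DPBS, ALT and Aeg-S/L, and Rag2gc (Rag2-/-; gc-/-) held DPBS and Aeg-S/L. All groups other than those of H1437-1 and Lung1 had 2 libraries. The labels give no dose, age or strain. The labels do not tie libraries to separate animals or cultures, so p-values measure the spread between these libraries, which may be technical.

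EGR proteins are zinc finger transcription factors of the immediate early class. Their genes are switched on by signals that act through proteins already present in the cell, without new protein synthesis. In many cell types growth factors, calcium entry or membrane stress act through the MEK-ERK kinases on ELK factors bound with serum response factor (SRF) at CArG boxes, and through CREB at cyclic AMP response elements (CRE), next to the EGR start sites. EGR1, EGR2 and EGR3 proteins bind the corepressors NAB1 and NAB2, and NAB2 is itself an EGR target.

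The promoters of EGR1, EGR2 and EGR4 are shown because EGR1 and EGR2 rose together under every complete stimulus, while EGR4 held few counts in H1437. EGR4 did rise with Aeg-S/L in H292-2, and no link between matches and response was tested. EGR3, which also rose under every complete stimulus, has no entry in the table of start sites. Each line gives the 250 bases before a start site on the gene's own strand, from RefSeq (GRCh38.p14), and capitals mark CArG boxes and the CRE half-site TGACG or its reverse complement CGTCA. EGR1 (chr5:138465229-138465478, plus strand) held 2 CArG matches, starting 105 and 83 bases before the start site, and 2 CRE half-sites, at 135 and 66 bases. EGR2 (chr10:62816367-62816616, minus strand) has 3 windows in the table. The one shown, chosen after the matches were seen as the 1 with a CArG match, held it at 71 bases and CRE half-sites at 110 and 54 bases. EGR4 (chr2:73293549-73293798, minus strand) held 0 CArG matches and CRE half-sites at 177 and 109 bases.
EGR1: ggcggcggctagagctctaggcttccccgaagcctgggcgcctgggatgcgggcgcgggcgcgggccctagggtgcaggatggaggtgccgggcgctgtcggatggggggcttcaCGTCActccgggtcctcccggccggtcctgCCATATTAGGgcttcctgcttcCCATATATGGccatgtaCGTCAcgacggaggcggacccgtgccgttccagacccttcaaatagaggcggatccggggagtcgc
EGR2: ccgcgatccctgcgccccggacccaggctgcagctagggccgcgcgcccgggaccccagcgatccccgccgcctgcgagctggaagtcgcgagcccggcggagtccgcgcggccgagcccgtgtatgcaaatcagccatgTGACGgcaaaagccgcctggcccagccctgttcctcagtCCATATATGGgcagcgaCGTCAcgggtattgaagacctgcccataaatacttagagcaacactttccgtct
EGR4: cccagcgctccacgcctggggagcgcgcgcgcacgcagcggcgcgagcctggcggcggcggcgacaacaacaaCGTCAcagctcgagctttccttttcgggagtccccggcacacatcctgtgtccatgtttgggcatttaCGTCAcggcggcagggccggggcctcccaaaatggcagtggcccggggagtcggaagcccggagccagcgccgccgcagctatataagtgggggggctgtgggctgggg

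Across the table's 35116 windows of this length, searched on both strands, 1.16% held at least 1 CArG match and 0.0313% at least 2, while 21.2% held at least 1 CRE half-site and 4.76% at least 2. The complete CRE TGACGTCA was in 0 of the 3 windows shown and in 1.65% of all windows. The EGR binding site GCGNGGGCG was found once, in the EGR1 window at 198 bases, and in 8.41% of all windows. A CRE half-site is a part of the complete CRE, so those counts overlap. A match describes letters in a window and not a used site.

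Human libraries held 32425310 to 53172930 gene counts (51 libraries) and mouse libraries 29611231 to 66327693 (48 libraries). All libraries of a group differed from each other by more than counting error. The 5 epithelial markers (EPCAM, CDH1, KRT8, KRT18, KRT19) summed to between 2.37e+03 and 3.85e+03 CPM (a gene's count scaled by the library's total) in H1437 and between 3.06e+03 and 3.85e+03 in H292. The leukocyte markers summed to at most 0.268 CPM in either line. Fibroblast markers summed to 54.3 to 218 CPM in H1437 and 19.2 to 51.8 CPM in H292. The 1 endothelial marker matched stood at 1.59 to 8.71 CPM in H1437 and 52.1 to 75.3 CPM in H292. The heart muscle, alveolar, club and ciliated lists each summed to at most 6.35 CPM in H1437 and 11.9 CPM in H292. Mouse identifiers could not be paired with names, so the cells' markers were not analysed here for the mouse. In these bulk samples, fewer cells of a type and less RNA per cell cannot be told apart.

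EGR1, the best known member of the family, was the most abundant EGR transcript in every human group and rose with each complete stimulus. In H1437-1 the DPBS libraries held 5.44, 7.35 and 8.98 CPM and the ALT libraries 395, 826 and 857 CPM, a 95.4-fold higher mean. With WT ALT, EGR1 stood at 1142 and 708 CPM in H1437-4 (DPBS 7.28 and 6.62) and at 696 and 624 CPM in H292-1 (DPBS 6.93 and 10.7). With Aeg-S/L it reached 1884 and 1934 CPM in H1437-2 (DPBS 6.31 and 7.83), 1720 and 1889 CPM in H1437-3 (DPBS 6.40 and 6.21) and 1982 and 1947 CPM in H292-2 (DPBS 7.31 and 8.88). No treated library overlapped a DPBS library, and the lowest treated library, H1437-1 ALT 1, still held 395 CPM. The log2 changes from edgeR's quasi-likelihood test were 6.66 ± 0.47 (SE; adjusted p = 4.55e-05) in H1437-1, 8.18 ± 0.33 in H1437-2, 8.26 ± 0.31 in H1437-3, 7.13 ± 0.19 in H1437-4, 6.34 ± 0.27 in H292-1 and 8.08 ± 0.20 in H292-2. The largest adjusted p of the 6 was that of H1437-1. The gene lies on the plus strand of chromosome 5, bases 137801179 to 137805004 in hg19, the build named in the submitters' processing notes (ENSG00000120738.7).

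Every member that could be tested rose in 5 of the 6 human experiments: 3 of 3 in each of the 4 H1437 experiments and 4 of 4 in H292-2. In H292-1 it was 3 of 4. The share of all genes tested that rose was 3.59% with ALT in H1437-1, 3.63% with Aeg-S/L in H1437-2, 15.4% with Aeg-S/L in H1437-3, 15.8% with WT ALT in H1437-4, 11.6% with WT ALT in H292-1 and 22.1% with Aeg-S/L in H292-2. EGR4 was too low to be tested in H1437. The filter on low counts keeps a gene once enough libraries hold it. EGR3, near 0 in every control, passed it only through libraries given a stimulus. EGR2 also needed such libraries to pass in every human experiment but H1437-2, as did EGR4 in H292-2. EGR1 passed through the controls alone in every human experiment. Counts of members that rose, or that fell against a stimulus, are therefore partly set by the filter.

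**Figure D1:**
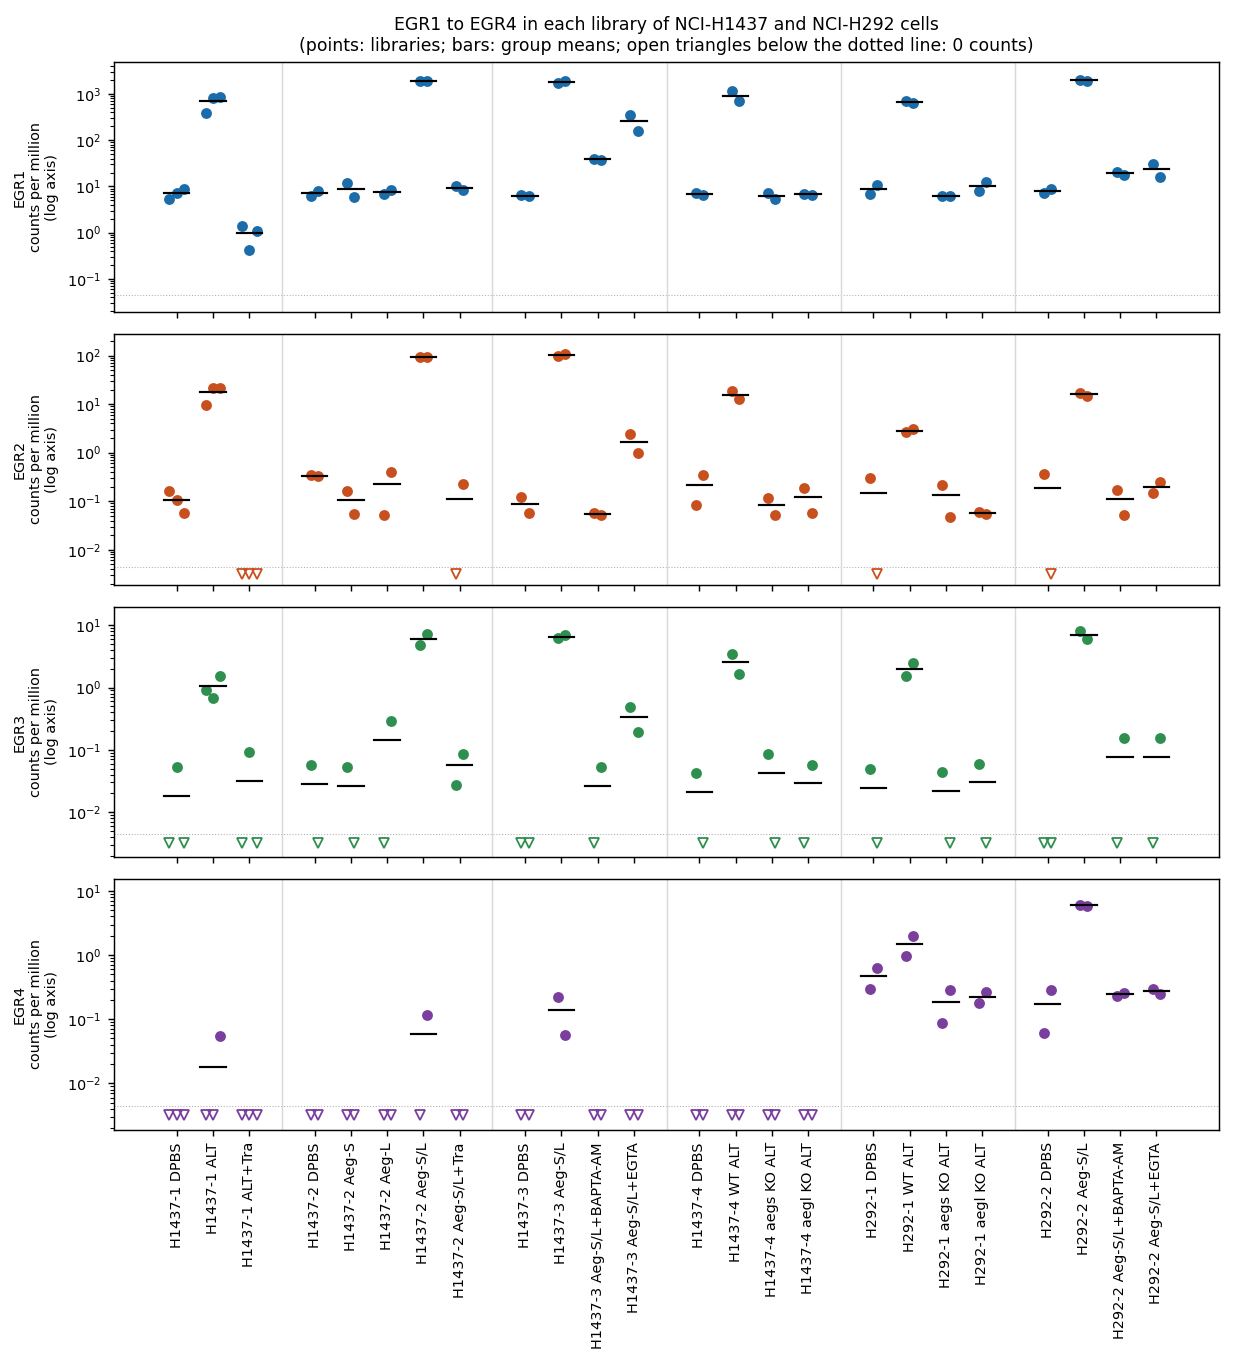
EGR1 to EGR4 in every human library, in CPM on a log axis, by group; each point is 1 library and values of 0 are drawn at the foot of the axis. EGR1 stood at 395 to 1982 CPM in the groups given a complete stimulus and at 5.44 to 10.7 CPM with DPBS.

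EGR2, known for its role in Schwann cells and in lymphocytes, was near the detection limit in the controls and rose in all 6 experiments. In H1437-1, DPBS libraries held 0.160, 0.107 and 0.0567 CPM (12 counts in all) and ALT libraries 9.55, 21.8 and 22.1 CPM, a log2 change of 7.37 ± 0.52 (edgeR, adjusted p = 0.000145). Aeg-S/L gave the highest levels: 93.3 and 94.7 CPM in H1437-2 (DPBS 0.343 and 0.323) and 100.3 and 111 CPM in H1437-3 (DPBS 0.12 and 0.0581). The log2 changes there were 8.23 ± 0.55 and 10.27 ± 0.30, or 282-fold and 1.19e+03-fold in mean CPM. Levels in H292 were lower: 17.3 and 14.8 CPM with Aeg-S/L in H292-2 (DPBS 0.370 and 0), and 2.64 and 3.04 CPM with WT ALT in H292-1 (DPBS 0.295 and 0). Those changes were 6.62 ± 0.46 and 4.27 ± 0.86 (adjusted p = 0.00565). With WT ALT in H1437-4, EGR2 held 18.4 and 12.7 CPM against 0.0844 and 0.355, a change of 6.27 ± 0.40. Treated and DPBS libraries did not overlap in any of the 6, and the share of all genes without overlap was not counted.

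Single control libraries set the size of several EGR2 changes. Leaving out H1437-4 DPBS 1 or DPBS 2 gave 5.52 or 7.54, leaving out H292-1 DPBS 2 gave 3.38, and leaving out H292-2 DPBS 2 gave 5.58. EGR2 remained called in each of these. Without DPBS 1 of either H292 experiment the controls held 0 counts and no value is given. EGR2 lies on the minus strand of chromosome 10, bases 64571756 to 64679660 in hg19 (ENSG00000122877.9).

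EGR4, which like EGR1 and EGR2 belongs to the immediate early genes and is known mainly from neurons, was called against DPBS under a complete stimulus in 1 experiment, H292-2. All H1437 libraries held 0 to 8 counts of it. In H292-2, DPBS libraries held 0.0617 and 0.288 CPM and Aeg-S/L libraries 6.14 and 5.90 CPM, a 34.5-fold higher mean and a log2 change of 5.22 ± 0.45 (edgeR, adjusted p = 1.61e-08). That change was 4.53 without DPBS 1 and 6.68 without DPBS 2. In H292-1 the WT ALT libraries stood at 0.966 and 1.97 CPM, above DPBS at 0.295 and 0.637 with no overlap, but the change of 1.77 ± 0.66 missed the threshold (adjusted p = 0.0792). It passed with the replicate number as a block (adjusted p = 0.0432) and without the filter on low counts (1.76, adjusted p = 0.0232). EGR4 lies on the minus strand of chromosome 2, bases 73518058 to 73520833 in hg19 (ENSG00000135625.6).

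EGR3, a member known from muscle spindles and lymphocytes, was absent or nearly so in every control, at 0 to 2 counts per library, and rose in all 6 experiments. It reached 0.908, 0.678 and 1.54 CPM with ALT in H1437-1, 3.39 and 1.67 CPM with WT ALT in H1437-4 and 1.53 and 2.47 CPM with WT ALT in H292-1. With Aeg-S/L it reached 4.75 and 7.24 CPM in H1437-2, 6.26 and 6.88 CPM in H1437-3 and 7.94 and 6.04 CPM in H292-2. Levels under Aeg-S/L thus lay above those under either extract, in experiments that differ. Against controls of 2 counts in all, the ratio of mean CPM was 58.1 in H1437-1 (95% interval 15.7 to 485), 217 in H1437-2 (59.6 to 1.8e+03), 110 in H1437-4 (30.0 to 916) and 73.9 in H292-1 (20.1 to 616). Against controls at 0 it was at least 149-fold higher in H1437-3 and at least 156-fold higher in H292-2, with the floor set at 3 counts over the group. These intervals and floors cover counting error only.

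The adjusted p for EGR3 lay between 4.26e-08 in H292-2 and 0.0113 in H1437-1. Without H1437-1 ALT 3 the call was lost (log2 change 5.29, adjusted p = 0.0572). Leaving out DPBS 2 moved the log2 change from 7.68 to 6.73 in H1437-2, from 6.67 to 5.87 in H1437-4 and from 6.17 to 5.38 in H292-1, each still called. EGR3 lies on the minus strand of chromosome 8, bases 22545172 to 22550815 in hg19 (ENSG00000179388.8). An antisense gene, ENSG00000253125.1, overlaps its exons and held at most 16 counts in a library against at most 269 for EGR3; the library kit named in the labels does not mark strand, so reads of the overlap cannot be told apart.

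On the scale of CPM per kilobase of counted exon, on which levels of different genes can be compared, Aeg-S/L gave EGR1 608, 575 and 626 in H1437-2, H1437-3 and H292-2. EGR2 stood at 25.5, 28.6 and 4.35 and EGR3 at 1.24, 1.35 and 1.44. EGR4 stood at 2.53 in H292-2, above EGR3 there, whereas in H1437 EGR4 was the lowest of the 4. The order was therefore EGR1, EGR2, EGR3, EGR4 in H1437 and EGR1, EGR2, EGR4, EGR3 in H292-2. These orders are descriptions; neighbouring levels were not tested against each other.

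**Figure D2:**
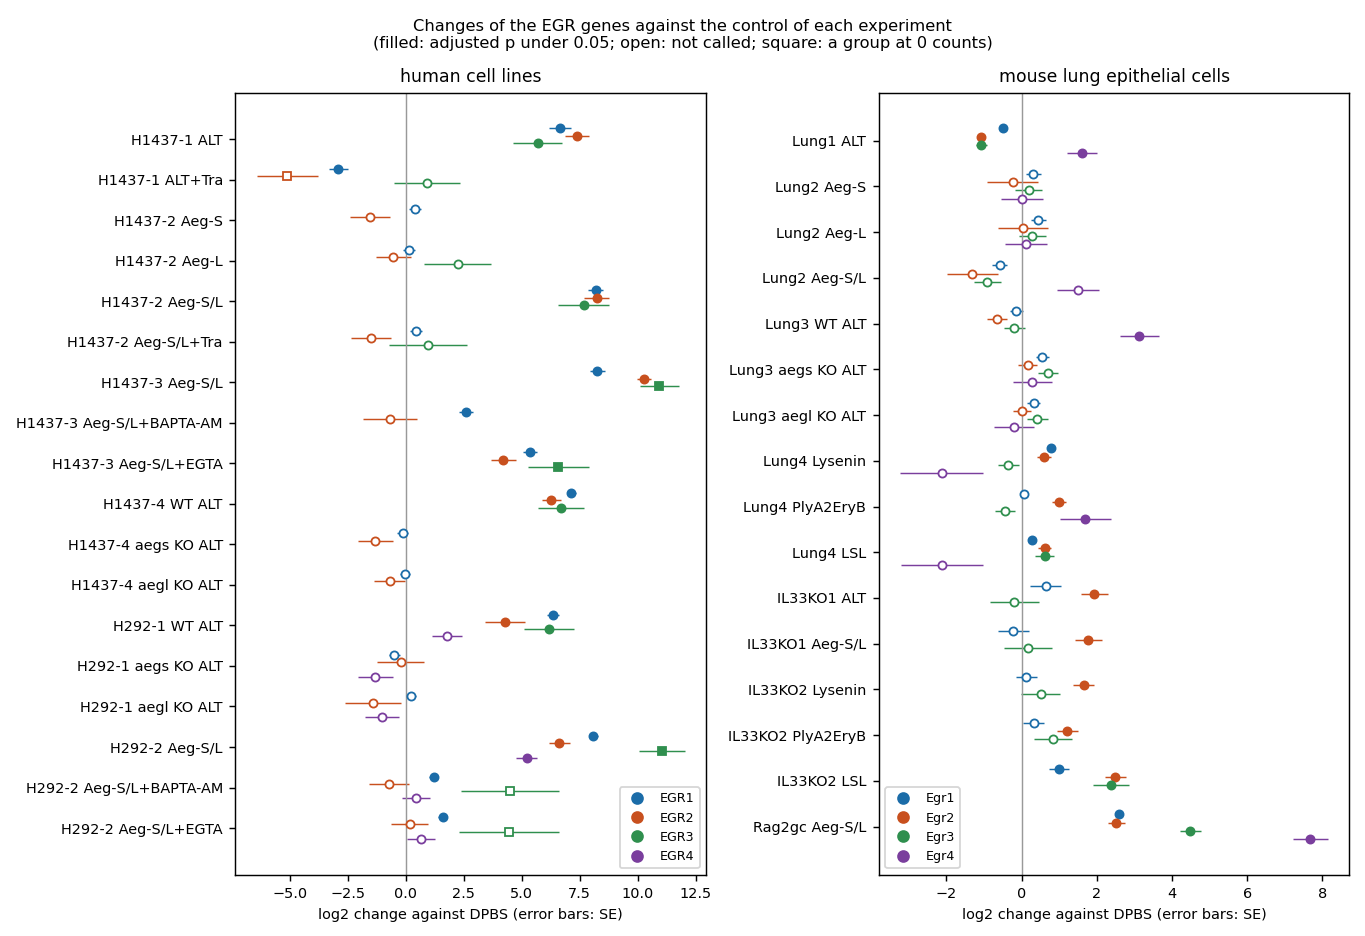
Log2 changes of the EGR genes against DPBS of the same experiment, human on one panel and mouse on the other, from edgeR with standard errors as bars; filled symbols passed an adjusted p of 0.05, and squares mark a group at 0 counts, whose fitted value is no measure of size. Human EGR1 lies between 6.34 and 8.26 under complete stimuli, while mouse Egr1 lies between -0.58 and 2.59.

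With Aeg-S or Aeg-L alone no EGR gene was called against DPBS in H1437-2. EGR1 stood at 11.9 and 5.94 CPM with Aeg-S and at 6.98 and 8.35 CPM with Aeg-L, against 6.31 and 7.83 with DPBS, so that both groups overlapped the control. The log2 changes were 0.40 ± 0.25 and 0.14 ± 0.25 (edgeR, adjusted p = 0.559 and 1). For EGR2 they were -1.53 ± 0.87 on 8 against 24 counts and -0.54 ± 0.76 on 16 against 24 counts. EGR2 with Aeg-S stood at 32.1% of DPBS, with no overlap. EGR3 held 2 counts with Aeg-S and 10 with Aeg-L against 2 with DPBS, for Aeg-L a ratio of 4.98 (95% interval 1.06 to 46.8) with overlapping groups. Of the 3 members tested, 0 were called for either protein by edgeR, 0 passed an unadjusted p under 0.05, and DESeq2 called 0. Over the whole table edgeR's calls came to 0% with either protein on its own (Aeg-S 0%, Aeg-L 0%), so neither result sets the EGR genes apart. The largest EGR1 level seen with one protein, 11.9 CPM, compares with 1884 CPM in the lower library of the combination.

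With the extracts labelled as lacking one of the proteins, no human EGR gene was called against DPBS. In H1437-4, EGR1 stood at 7.29 and 5.42 CPM with the aegs KO extract and 6.93 and 6.58 CPM with the aegl KO extract, against 7.28 and 6.62 with DPBS and 1142 and 708 with the WT extract. In H292-1 it stood at 6.24 and 6.36 CPM with aegs KO and 7.86 and 12.5 CPM with aegl KO. EGR4 in H292-1 stood at 40.2% (aegs KO) and 48% (aegl KO) of DPBS with no overlap, on 16 counts each against 33. EGR2 stood at 37.8% and 55.3% of DPBS in H1437-4 and at 90.7% and 38.5% in H292-1, on 4 to 12 counts against 18 and 12, with overlap. Against DPBS, 0 of the 3 members tested in H1437-4 and 0 of the 4 tested in H292-1 were called for either extract by edgeR or DESeq2, and 0 passed an unadjusted p under 0.05. EdgeR called 1.08% and 0.766% of all genes for aegs KO and aegl KO in H1437-4, and 0% and 0.12% in H292-1.

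Against the WT extract, every member tested fell with both knockout extracts in both lines. EGR1 fell by 7.26 ± 0.19 (aegs KO) and 7.16 ± 0.19 (aegl KO) on the log2 scale in H1437-4 and by 6.83 ± 0.28 and 6.13 ± 0.27 in H292-1, which left 0.687%, 0.731%, 0.954% and 1.54% of the WT level. EGR2 fell by 7.59 ± 0.47 and 6.96 ± 0.44 in H1437-4 and by 4.47 ± 0.86 and 5.67 ± 0.99 in H292-1. EGR3 held 2 or 3 counts in each knockout group against 172 counts (H1437-4) and 142 counts (H292-1) with the WT extract, so that its ratios were 62.2 (95% interval 20.9 to 304), 98.6 (26.9 to 820), 87.6 (23.8 to 731) and 70.9 (19.3 to 591), with WT the higher. Its fitted log2 changes moved from -5.90 to -4.89 without H1437-4 aegs KO 2, from -6.50 to -5.44 without H1437-4 aegl KO 1, from -6.39 to -5.53 without H292-1 aegs KO 2 and from -6.08 to -5.07 without H292-1 aegl KO 2, each still called. EGR4 fell in H292-1 by 3.08 ± 0.72 (adjusted p = 0.0105) and 2.80 ± 0.71 (adjusted p = 0.0206). Of all genes tested, 14.2% and 14.5% fell in H1437-4 and 13.4% and 9.13% in H292-1 for aegs KO and aegl KO. The EGR4 call for aegs KO was lost without WT ALT 2 (adjusted p = 0.0958) or aegs KO 1 (adjusted p = 0.0658) and was -4.14 without aegs KO 2, and that for aegl KO without WT ALT 2 (adjusted p = 0.172), aegl KO 1 (adjusted p = 0.115) or aegl KO 2 (adjusted p = 0.0711). The EGR2 changes moved to -8.21 without H1437-4 aegs KO 1, to -8.07 without H1437-4 aegl KO 1, and to -5.93 and -3.80 without H292-1 aegs KO 1 and 2, all still called.

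Tra brought the EGR genes down in both experiments that used it. No group held Tra without a stimulus, so effects on the response and on the control level cannot be told apart. In H1437-1, EGR1 stood at 1.38, 0.433 and 1.10 CPM with ALT and Tra, 0.14% of the ALT mean, a log2 change of -9.57 ± 0.54 (edgeR, adjusted p = 7.84e-06). All 3 libraries also lay under the lowest DPBS library at 5.44 CPM, and EGR1 fell against DPBS by 2.91 ± 0.42 (adjusted p = 0.0160). That second call was lost without DPBS 2 (adjusted p = 0.0773), without Tra 2 (log2 change -2.54, adjusted p = 0.0735) or without Tra 3 (adjusted p = 0.0639). EGR2 was at 0 counts in all 3 Tra libraries, at least 747-fold lower than with ALT. EGR3 fell by 4.78 ± 0.94, to 3.01% of the ALT level, a call lost without ALT 3 (log2 change -4.39, adjusted p = 0.0808). All 3 members tested fell against ALT, as did 3.75% of all genes tested; 1 of 3 fell against DPBS, as did 0.16% of all genes. EGR2 at 0 against 12 DPBS counts was at least 4.64-fold lower but not called by edgeR (adjusted p = 0.190). DESeq2 called it (adjusted p = 0.0243), as did edgeR without the filter on low counts (adjusted p = 0.00225).

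In H1437-2, EGR1 with Aeg-S/L and Tra stood at 10.3 and 8.43 CPM, 0.492% of the Aeg-S/L level (log2 change -7.72 ± 0.32), just over the DPBS libraries at 6.31 and 7.83. EGR2 fell by 9.73 ± 0.62, to 0.12%, and EGR3 by 6.72 ± 1.01, to 0.936%. All 3 members tested fell, against 1.15% of all genes tested. The EGR2 change was -8.74 without Tra 1. The EGR3 call was lost without Aeg-S/L 2 (-6.38, adjusted p = 0.0587), Tra 1 (-6.15, adjusted p = 0.108) or Tra 2 (-7.61, adjusted p = 0.0962). Against DPBS, 0 of 3 members were called by edgeR, 0 passed an unadjusted p under 0.05 and DESeq2 called 0; EGR1 had a log2 change of 0.45 ± 0.25 (adjusted p = 0.583). EdgeR called 0.495% of all genes there. Whether Tra took EGR1 under the DPBS level differently in the 2 experiments was not tested.

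The calcium chelators lowered all EGR genes tested, EGR1 to a different extent in each line. By the labels, no group held a chelator without Aeg-S/L, so its effect on the control level is not known. In H1437-3, EGR1 under Aeg-S/L went from 1720 and 1889 CPM to 39.8 and 37.8 CPM with BAPTA-AM (2.15% left, log2 change -5.66 ± 0.26) and to 355 and 156 CPM with EGTA (14.1% left, -2.91 ± 0.23). In H292-2 the labels give Aeg-S/L with BAPTA-AM, whereas the deposited columns of these 2 libraries name BAPTA without Aeg-S/L and the name of their table gives ALT. The labels were followed, and every BAPTA-AM value of H292-2 rests on them. EGR1 there went from 1982 and 1947 CPM to 20.3 and 17.8 CPM with BAPTA-AM (0.97% left, -6.87 ± 0.18) and to 31.2 and 16.1 CPM with EGTA (1.2% left, -6.49 ± 0.18). EGR1 therefore stayed highest with EGTA in H1437-3, where the 2 libraries also differed most from each other. In each of the 4 groups both libraries lay above both DPBS libraries, and EGR1 rose against DPBS by 2.60 ± 0.29, 5.35 ± 0.29, 1.21 ± 0.20 and 1.59 ± 0.19 for BAPTA-AM and EGTA in H1437-3 and then in H292-2. The largest of these adjusted p-values was 7.20e-05 (edgeR).

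EGR2 and EGR3 were also called above DPBS with EGTA in H1437-3. There EGR2 stood at 2.40 and 0.984 CPM, 1.61% of its Aeg-S/L level (log2 change -6.07 ± 0.20), and rose against DPBS by 4.2 ± 0.54. EGR3 held 23 counts, 5.21% of its Aeg-S/L level, at least 7.54-fold higher than DPBS at 0 (adjusted p = 0.00631). With BAPTA-AM, EGR2 held 2 counts in each library, 0.0519% of its Aeg-S/L level, and EGR3 held 2 counts in all, its level under Aeg-S/L alone being higher by a ratio of 240 (95% interval 66.2 to 1.99e+03). Without EGTA 1, EGR1 changed by 4.65 against DPBS and by -3.62 against Aeg-S/L, EGR2 by 3.45 and -6.82, and EGR3 by -5.16 against Aeg-S/L, no longer called against DPBS (adjusted p = 0.0685). Of all genes tested in H1437-3, 16.1% fell with BAPTA-AM and 14.8% with EGTA against Aeg-S/L, next to 3 of 3 members in each case. Against DPBS, 1 of 3 members rose with BAPTA-AM (15% of all genes) and 3 of 3 with EGTA (4.19% of all genes).

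In H292-2, EGR2, EGR3 and EGR4 fell to 0.694%, 1.12% and 4.05% of their Aeg-S/L levels with BAPTA-AM and to 1.23%, 1.1% and 4.5% with EGTA. The log2 changes were -7.34 ± 0.48, -6.55 ± 0.62 and -4.78 ± 0.42 with BAPTA-AM and -6.44 ± 0.45, -6.58 ± 0.64 and -4.57 ± 0.42 with EGTA. All 4 members fell with each chelator, next to 20.3% and 21.7% of all genes tested. DESeq2 did not call the EGR3 changes (adjusted p = 0.0777 and 0.0713), which were -5.63 without BAPTA-AM 1 and -5.60 without EGTA 1. The EGR2 change with BAPTA-AM was -8.35 without BAPTA-AM 1 and -6.71 without BAPTA-AM 2. Against DPBS, EGR1 alone of the 4 members tested was called with either chelator, while 17.6% and 20.1% of all genes rose. EGR2 there had log2 changes of -0.72 ± 0.87 and 0.17 ± 0.79, and EGR4 of 0.43 ± 0.60 and 0.65 ± 0.60. EGR3 held 6 and 5 counts against 0 and was called without the filter on low counts (adjusted p = 0.0290 and 0.0394).

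**Figure D3:**
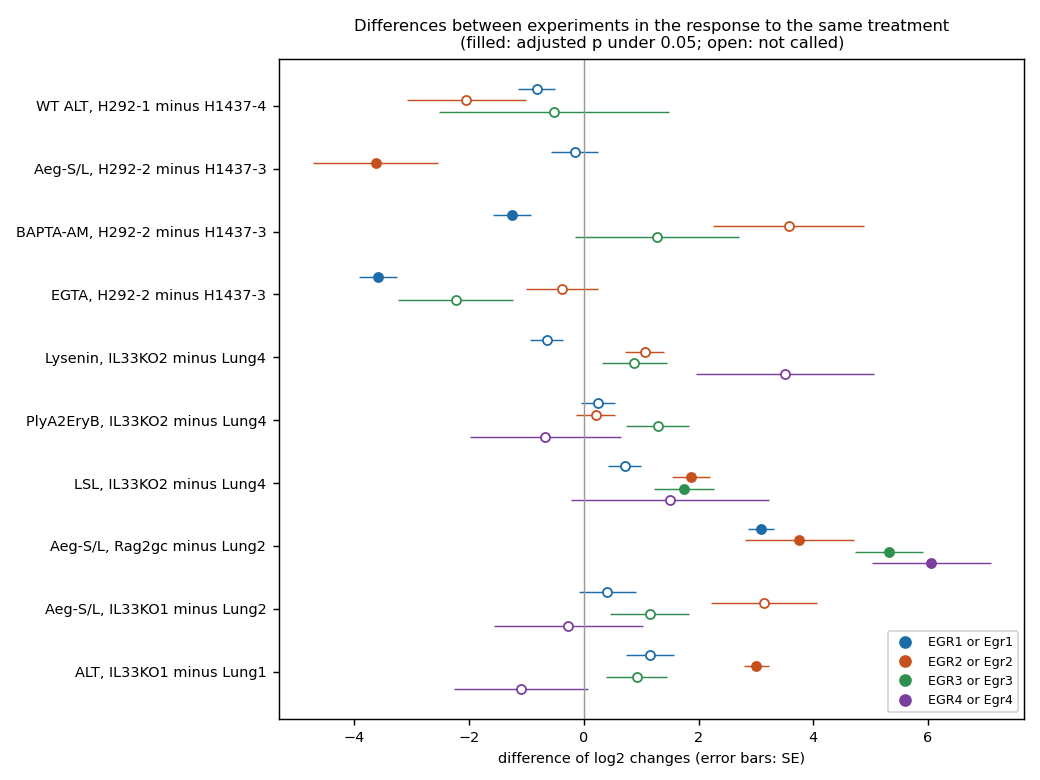
Differences in log2 change between paired experiments from joint edgeR fits, with standard errors as bars. Among human comparisons, EGR2 with Aeg-S/L, and EGR1 with BAPTA-AM and EGTA, lie below 0.

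The lines were compared through the difference of their changes in joint fits, in which line and experiment cannot be told apart. With Aeg-S/L the EGR1 change in H292-2 differed from that in H1437-3 by -0.16 ± 0.41 (edgeR, adjusted p = 0.873), while the EGR2 change was smaller by 3.63 ± 1.09 on the log2 scale (log2 difference -3.63, adjusted p = 0.0254). The EGR1 change from Aeg-S/L alone to the chelated group was more negative in H292-2 by a difference of -1.25 ± 0.33 for BAPTA-AM (adjusted p = 0.0147) and of -3.59 ± 0.33 for EGTA (adjusted p = 3.39e-08). EGR2 differed by 3.57 ± 1.31 with BAPTA-AM and -0.38 ± 0.63 with EGTA, and neither was called. Without the filter on low counts the EGR2 difference with BAPTA-AM was called (3.55, adjusted p = 0.00187), as was the EGR3 difference with EGTA (-2.26, adjusted p = 0.0415). The doubt over the H292-2 BAPTA-AM columns holds for both BAPTA-AM differences. For WT ALT, H292-1 minus H1437-4, EGR1 differed by -0.82 ± 0.32 (adjusted p = 0.131) and EGR2 by -2.05 ± 1.04 (adjusted p = 0.243). EdgeR called 0 members there, 1 (EGR1) had an unadjusted p under 0.05, and DESeq2 called 0. Of all genes tested, 14.3% differed for Aeg-S/L, 11% for BAPTA-AM, 14.4% for EGTA and 8.9% for WT ALT.

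The EGR2 difference for Aeg-S/L rests on DPBS groups of 6 and 12 counts and was lost without H1437-3 DPBS 2 (adjusted p = 0.0809). It was -4.22 without H1437-3 DPBS 1 and -4.68 without H292-2 DPBS 2. Its value without H292-2 DPBS 1 is not given, since that control then holds 0 counts. The BAPTA-AM difference was not called by DESeq2 (adjusted p = 0.0881), and was lost, with adjusted p of 0.0501 to 0.0785, without H292-2 Aeg-S/L 1 or BAPTA-AM 2 or without H1437-3 Aeg-S/L 1 or BAPTA-AM 1. The EGTA difference was called with every library left out in turn, and was -2.88 without H1437-3 EGTA 1.

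Of the genes that act with or upstream of EGR proteins, 9 of 10 could be tested in each human experiment: SRF, the MRTF coactivators, the ELK factors, CREB1, NAB1 and NAB2. SRF rose in all 6, by log2 changes of 0.93 to 1.57. The corepressor NAB2 changed by 2.81 in H1437-1, 2.41 in H1437-2, 1.63 in H1437-3, 2.67 in H1437-4, -0.16 in H292-1 and 1.16 in H292-2, and NAB1 by 2.55, 1.15, 0.99, 1.81, 0.08 and 0.69 in that order; both rose in 5 of 6, all but H292-1. ELK1, ELK3 and MRTFA rose in 4 of 6, whereas ELK4, MRTFB and CREB1 fell in 4 of 6. Under the complete stimuli 3, 3, 6, 6, 4 and 6 of the 9 rose and 0, 1, 3, 3, 2 and 3 fell (H1437-1 to H1437-4, then H292-1 and H292-2). In that order, 3.59%, 3.63%, 15.4%, 15.8%, 11.6% and 22.1% of all genes tested rose. The shares that fell were 1.13%, 3.1%, 15.8%, 17.1%, 11.3% and 21.1%. The median log2 change of the 9 lay between 0.08 and 0.60, beside -0.03 to 0.01 over all genes tested.

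**Figure D4:**
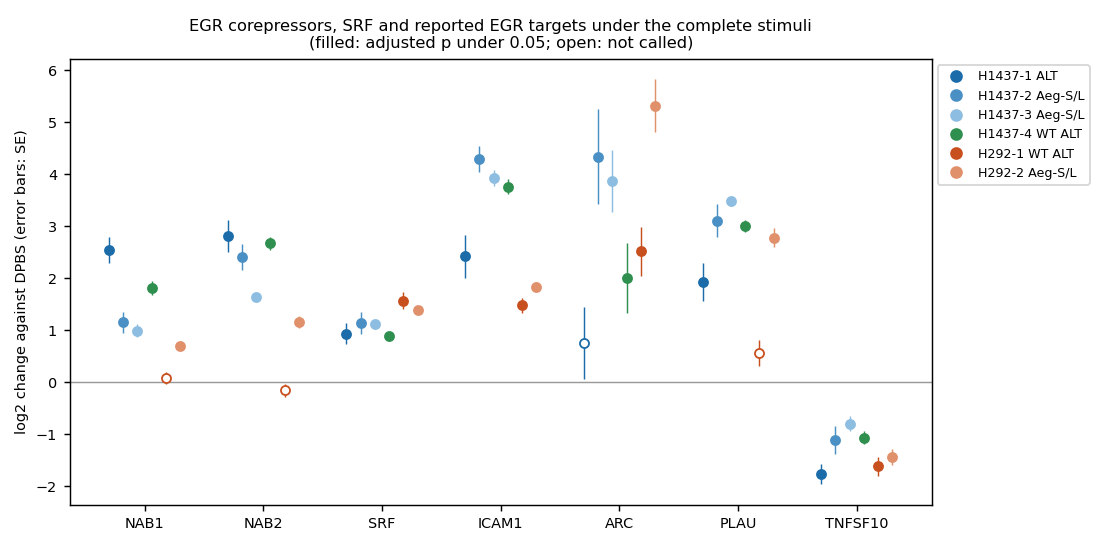
Log2 changes of NAB1, NAB2 and SRF, and of the reported EGR targets ICAM1, ARC, PLAU and TNFSF10, under the 6 complete human stimuli, from edgeR. SRF lies above 0 in all 6 and NAB1 and NAB2 lie highest in H1437-1 and H1437-4.

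Of 25 genes reported as EGR targets, 23 or 24 were tested in each experiment. In the same order of experiments, 4, 8, 12, 14, 8 and 14 rose and 1, 1, 2, 1, 3 and 5 fell, with medians from 0.23 to 0.59. Of all genes tested, 3.59%, 3.63%, 15.4%, 15.8%, 11.6% and 22.1% rose and 1.13%, 3.1%, 15.8%, 17.1%, 11.3% and 21.1% fell. ICAM1, an adhesion molecule for leukocytes, rose in all 6 by 1.48 to 4.30. TNFSF10, the death ligand TRAIL, fell in all 6, by log2 changes of -0.80 to -1.77. ARC, a regulator of synapses, rose in 5, the exception being H1437-1 at 0.75, and PLAU, the urokinase protease, rose in 5, the exception being H292-1 at 0.57. NAB2 stands in both lists. With the inhibitors against the stimulus, 7 targets fell and 1 rose with Tra in H1437-1, and 5 fell and 0 rose with Tra in H1437-2. In H1437-3, 11 fell and 1 rose with BAPTA-AM and 11 fell and 3 rose with EGTA. In H292-2, 10 fell and 4 rose with BAPTA-AM and 11 fell and 5 rose with EGTA. Of all genes tested, 3.75% and 1.15% fell and 1.33% and 0.124% rose with Tra in H1437-1 and H1437-2. With BAPTA-AM and EGTA, 16.1% and 14.8% fell and 11.6% and 15.8% rose in H1437-3, and 20.3% and 21.7% fell and 17.6% and 23.2% rose in H292-2.

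The likeness of other genes to the EGR pattern was taken as Pearson's r of the log2 changes over the 18 human treated groups, among 14232 genes tested in all 6 experiments. Groups of 1 experiment share their DPBS libraries, so r is a description. EGR1 was most like EGR2 (r = 0.966), then MAFF (0.955), IER3 (0.946), PDE4B (0.939) and FOSB (0.934). EGR2 was next most like SAT1 (0.948), PDE4B (0.939), TNFRSF10B (0.932) and IER2 (0.923). For EGR3 the genes were EIF4A2 (0.918), EGR1 (0.915), PLK2 (0.913), CCNB1IP1 (0.910) and PTGS2 (0.906). EGR4 was not tested in all experiments and has no such value.

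In mouse lung epithelial cells the EGR genes were high with DPBS alone in some experiments and low in others. Mean Egr1 with DPBS was 1699 ± 124 CPM in Lung1 (SD, n = 3), 1724 ± 122 in Lung2 and 1486 ± 329 in Lung3, and 231.8 ± 24.3 in Lung4, 273.8 ± 162 in IL33KO1, 226 ± 113 in IL33KO2 and 78.5 ± 3.09 in Rag2gc (n = 2 each). Egr2 stood at 174, 159 and 136 CPM in Lung1 to Lung3 and at 0.806 to 1.96 CPM in the other 4 experiments. Egr3 stood at 36.2, 29.3 and 21.9 CPM against 0.192 to 0.939 CPM, and Egr4 at 1.4, 1.21 and 0.936 CPM against 0.0196 to 0.0864 CPM. All 4 genes thus separated Lung1, Lung2 and Lung3 from the other experiments, wild-type Lung4 included. How many other genes separate these experiments in the same way was not counted, so this is no trait particular to the EGR genes. No group links the experiments, so genotype, experiment and handling cannot be told apart and the levels were not tested. Egr1 lies on chromosome 18, bases 34859823 to 34864984 in mm10 (ENSMUSG00000038418.7), Egr2 on chromosome 10, bases 67535475 to 67542188, Egr3 on chromosome 14, bases 70077203 to 70082614, and Egr4 on chromosome 6, bases 85511121 to 85513589.

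**Figure D5:**
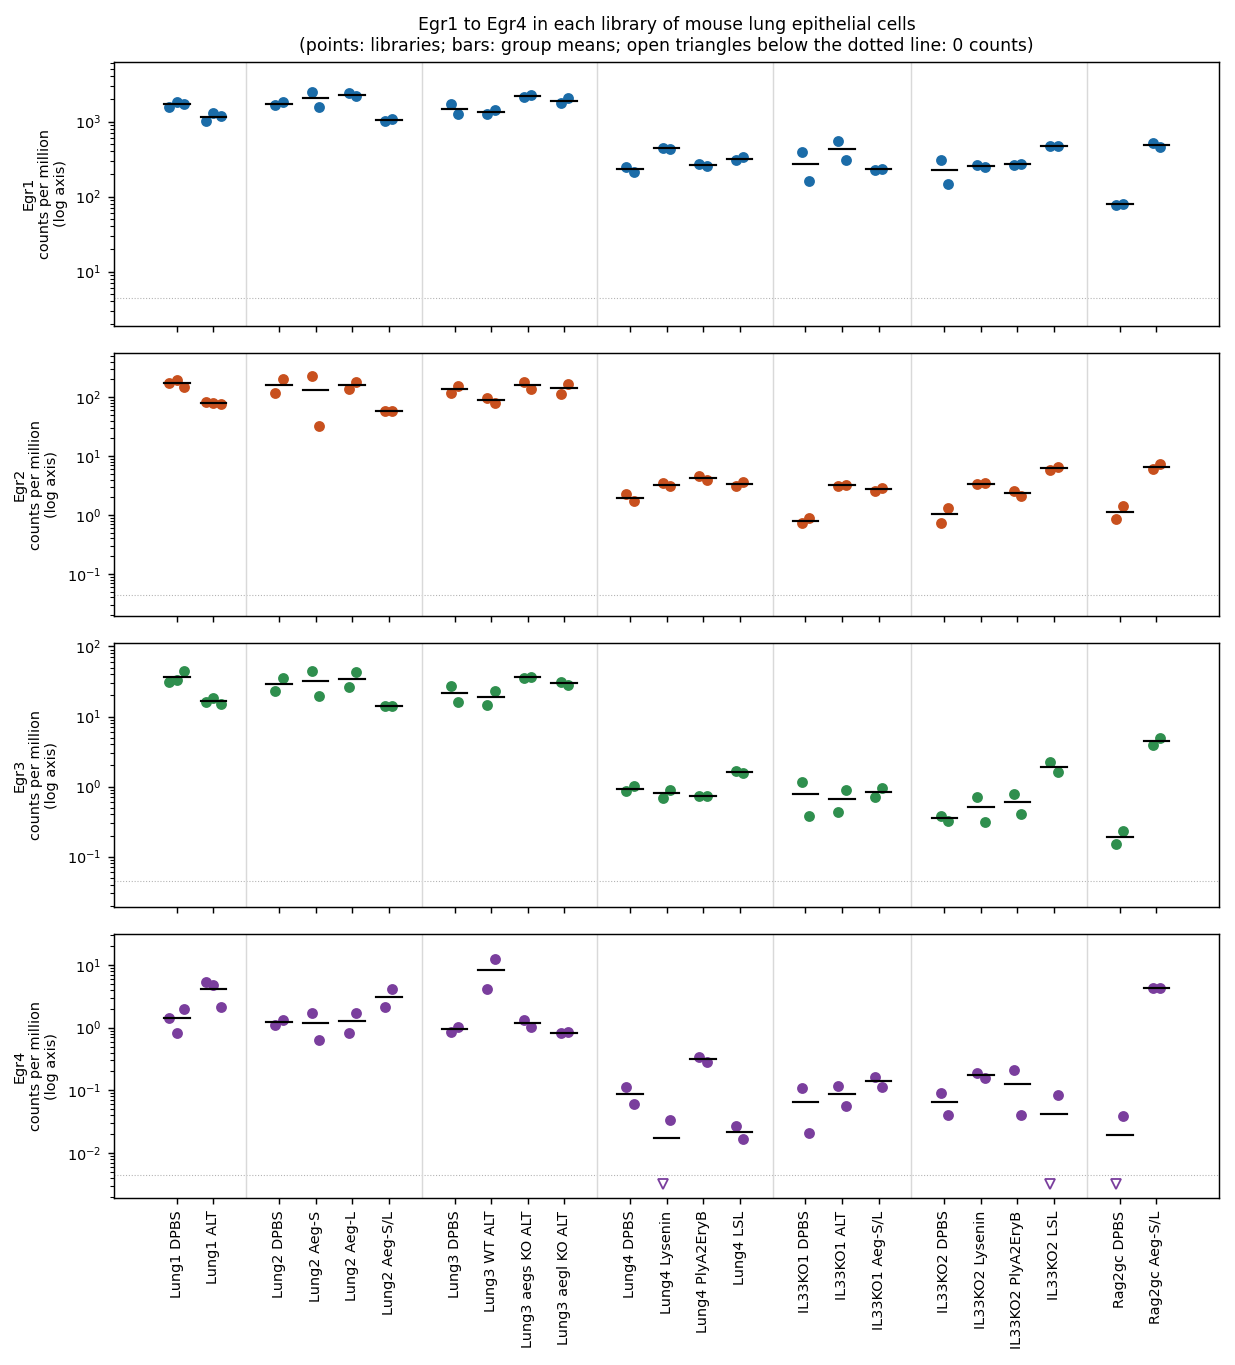
Egr1 to Egr4 in every mouse library, in CPM on a log axis, by group; each point is 1 library. DPBS libraries of Lung1 to Lung3 hold 1253 to 1810 CPM of Egr1, and those of the other experiments 76.4 to 388 CPM.

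ALT lowered Egr1, Egr2 and Egr3 and raised Egr4 in Lung1. Egr1 went from 1560, 1800 and 1736 CPM with DPBS to 1026, 1282 and 1169 CPM, a log2 change of -0.49 ± 0.10 (edgeR, adjusted p = 0.00104). Egr2 went from 177, 198 and 146 CPM to 83.1, 78.1 and 76.8 CPM, and Egr3 from 31.1, 33.5 and 44.0 CPM to 16, 18.5 and 15.2 CPM; both fell by 1.07 on the log2 scale (SE 0.10 and 0.14). Egr4 rose from 1.42, 0.811 and 1.98 CPM to 5.31, 4.85 and 2.14 CPM, a change of 1.61 ± 0.39 (adjusted p = 0.00339). The groups did not overlap for any of the 4 genes, although ALT 3 lay close to the highest DPBS library for Egr4. The share of all genes without overlap was not counted. Among all genes tested, 30.1% fell and 28.5% rose.

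Aeg-S/L in Lung2 gave changes of the same signs, none of which passed the threshold. Egr1 stood at 1028 and 1072 CPM (DPBS 1637 and 1810), Egr2 at 57.3 and 58.4 CPM (DPBS 117 and 202) and Egr3 at 14.1 CPM in both libraries (DPBS 23.1 and 35.5). Egr4 stood at 2.16 and 4.10 CPM (DPBS 1.10 and 1.33). The log2 changes were -0.58 ± 0.20, -1.31 ± 0.68, -0.91 ± 0.36 and 1.5 ± 0.55 with adjusted p of 0.0513, 0.165, 0.0844 and 0.0627. Of the 4, edgeR called 0, 3 had an unadjusted p under 0.05 (all but Egr2) and DESeq2 called those 3, while edgeR called 38.8% of all genes in either direction. Without the filter on low counts all 4 were called. Egr2 then had an edgeR adjusted p of 3.04e-13 at a log2 change of -1.34, close to that of the main fit. These calls therefore rest on the setting. With Aeg-S or Aeg-L alone 0 of the 4 were called by edgeR or DESeq2 and 0 passed an unadjusted p under 0.05, next to 0% and 0% of all genes. The Aeg-S libraries differed widely from each other: Egr2 stood at 228 CPM in Aeg-S 1 and 32.6 CPM in Aeg-S 2.

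In Lung3 the WT extract raised Egr4 from 0.842 and 1.03 CPM to 4.15 and 12.5 CPM, a log2 change of 3.13 ± 0.52 (edgeR, adjusted p = 0.00246), which was 3.72 without WT ALT 1 and 2.13 without WT ALT 2. Egr1 (-0.14 ± 0.18), Egr2 (-0.66 ± 0.26) and Egr3 (-0.19 ± 0.27) were not called. So 1 of 4 members rose, next to 15.5% of all genes. With the knockout extracts Egr4 stayed at 1.34 and 1.02 CPM (aegs KO) and 0.809 and 0.858 CPM (aegl KO), and fell against the WT extract by 2.85 ± 0.52 and 3.35 ± 0.53. Without WT ALT 2 those changes were -1.84 and -2.34, still called. Of all genes, 13.2% and 12.7% fell.

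Egr1, Egr2 and Egr3 were higher with the aegs KO extract than with the WT extract. Egr1 stood at 2133 and 2292 CPM against 1255 and 1442, Egr2 at 178 and 138 CPM against 96.7 and 78.6, and Egr3 at 35.6 and 37.0 CPM against 14.6 and 23.5. They rose by 0.69 ± 0.18, 0.82 ± 0.26 and 0.90 ± 0.27 (adjusted p = 0.0215, 0.0414 and 0.0367), next to 15.7% of all genes. The Egr1 and Egr2 calls were lost without any 1 of the 4 libraries and the Egr3 call without any but WT ALT 2, with adjusted p of 0.0729 to 0.246. With the replicate block Egr2 and Egr3 were not called (adjusted p = 0.0572 and 0.0542), and with DESeq2 size factors Egr2 was not (adjusted p = 0.0504). For the aegl KO extract the changes of 0.47 to 0.66 were not called. Against DPBS, edgeR called 0 of 4 members for either extract and 0% and 0% of all genes; Egr1 and Egr3 had an unadjusted p under 0.05 for aegs KO, 0 members for aegl KO, and DESeq2 called 0.

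In wild-type Lung4 mice each pore-forming protein raised Egr2, and the other members differed by protein. Egr2 stood at 2.23 and 1.70 CPM with DPBS, 3.46 and 3.09 with Lysenin, 4.59 and 3.97 with PlyA2EryB and 3.12 and 3.67 with LSL, log2 changes of 0.59 ± 0.18, 1.0 ± 0.18 and 0.61 ± 0.18 (edgeR). Egr1 went from 249 and 215 CPM to 444 and 435 CPM with Lysenin (0.79 ± 0.06, adjusted p = 1.52e-09) and to 308 and 332 CPM with LSL (0.28 ± 0.06), while with PlyA2EryB it stood at 269 and 257 CPM (0.06 ± 0.06, not called). Egr3 rose with LSL (0.61 ± 0.25, adjusted p = 0.0392), from 0.856 and 1.02 CPM to 1.69 and 1.57 CPM. Egr4 rose with PlyA2EryB on 31 against 9 counts (1.69 ± 0.68, adjusted p = 0.0358), and passed the filter on low counts only through the PlyA2EryB libraries. With Lysenin and LSL, Egr4 held 2 counts against 9, a ratio of 4.35 (95% interval 0.9 to 41.4) and 4.22 (0.874 to 40.2) with DPBS the higher, not called. So 2, 2 and 3 of 4 members rose, next to 32%, 32.8% and 33.1% of all genes for Lysenin, PlyA2EryB and LSL.

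The Egr3 and Egr4 calls in Lung4 rested on settings and libraries. DESeq2 called neither (adjusted p = 0.123 and 0.173), the replicate block ended the Egr3 call (adjusted p = 0.0504), and the Egr4 call was lost without the filter (adjusted p = 0.109). Leaving out any 1 library ended both, with adjusted p of 0.0512 to 0.169 for Egr3 and 0.0514 to 0.169 for Egr4. The Egr2 call for Lysenin was lost without DPBS 2 (adjusted p = 0.0790) or Lysenin 1 (adjusted p = 0.0577), and that for LSL without DPBS 2 (adjusted p = 0.0597) or LSL 2 (adjusted p = 0.0927).

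In IL-33 knockout mice Egr2 rose with all 5 stimuli given. In IL33KO1 it stood at 0.731 and 0.881 CPM with DPBS, 3.07 and 3.26 with ALT and 2.60 and 2.92 with Aeg-S/L, log2 changes of 1.93 ± 0.36 (edgeR, adjusted p = 0.0473) and 1.77 ± 0.36 (adjusted p = 0.0333). Both calls were lost with the replicate block (adjusted p = 0.0861 and 0.0600) and when a treated library was left out, the adjusted p reaching 0.188 without ALT 1 and 0.263 without Aeg-S/L 2. Egr1 overlapped between groups: 388 and 159 CPM with DPBS, 543 and 307 with ALT and 225 and 234 with Aeg-S/L. So 1 of 3 members tested rose in each case, next to 2.4% and 6.4% of all genes.

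In IL33KO2, Egr2 stood at 0.738 and 1.33 CPM with DPBS, 3.34 and 3.46 with Lysenin, 2.51 and 2.12 with PlyA2EryB and 5.82 and 6.56 with LSL. It rose by 1.65 ± 0.28, 1.22 ± 0.28 and 2.49 ± 0.28 (edgeR, adjusted p = 0.00277, 0.00822 and 0.000406). LSL also raised Egr1, from 306 and 146 CPM to 472 and 475 CPM (0.99 ± 0.27, adjusted p = 0.0230), and Egr3, from 0.380 and 0.324 CPM to 2.24 and 1.61 CPM (2.37 ± 0.48, adjusted p = 0.0064). The Egr1 change was 1.62 without DPBS 1 and lost its call without LSL 1 (adjusted p = 0.0973) or LSL 2 (adjusted p = 0.0940). The Egr3 call was lost without LSL 1 (adjusted p = 0.0526), and the Egr2 call for PlyA2EryB without PlyA2EryB a (adjusted p = 0.0581). LSL thus moved 3 of 3 members tested and the other proteins 1 of 3, next to 20.7% (Lysenin), 25.7% (PlyA2EryB) and 19.5% (LSL) of all genes. Egr4 held 4 to 14 counts a group and was not tested.

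All 4 genes rose with Aeg-S/L in Rag2gc mice. Egr1 went from 76.4 and 80.7 CPM to 511 and 463 CPM (log2 change 2.59 ± 0.07, edgeR adjusted p = 1.62e-09), Egr2 from 0.846 and 1.41 CPM to 6.00 and 7.25 CPM (2.52 ± 0.23) and Egr3 from 0.149 and 0.235 CPM to 3.92 and 4.95 CPM (4.49 ± 0.29). Egr4 went from 0 and 2 counts to 4.27 and 4.25 CPM, a ratio of 237 (95% interval 65.3 to 1.96e+03), with a fitted log2 change of 7.68 that was 6.68 without DPBS a. No group overlapped, though the share of all genes without overlap was not counted. All 4 calls held with each library left out in turn for which a value could be given. Among all genes tested, 33.7% rose. Egr3 and Egr4 needed the Aeg-S/L libraries to pass the filter on low counts, so their part in the count of members is set by the filter. Even so, Egr1 at 463 to 511 CPM stayed under every DPBS library of Lung1, Lung2 and Lung3, the lowest of which held 1253 CPM.

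The mouse experiments were compared in the same way, with genotype, where the labels give one, and experiment not to be told apart. For LSL, the change in IL33KO2 was larger than in Lung4 by 1.87 ± 0.33 for Egr2 (edgeR, adjusted p = 0.00117) and 1.75 ± 0.52 for Egr3 (adjusted p = 0.0266), while Egr1 (0.71 ± 0.29) and Egr4 (1.5 ± 1.73) were not called. The Egr3 difference was lost without IL33KO2 LSL 1 (adjusted p = 0.105), Lung4 DPBS 2 (adjusted p = 0.0749), Lung4 LSL 1 (adjusted p = 0.0619) or Lung4 LSL 2 (adjusted p = 0.0811). For Lysenin and PlyA2EryB edgeR called 0 of 4 members, with 3 and 1 at an unadjusted p under 0.05. Egr2 differed by 1.06 ± 0.34 with Lysenin (adjusted p = 0.0513), the 1 difference of these that DESeq2 called (adjusted p = 0.0275). Of all genes tested, 22.6%, 14.5% and 14.7% differed for LSL, Lysenin and PlyA2EryB.

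A further 3 differences were chosen after the values were seen. The Aeg-S/L change in Rag2gc was larger than in Lung2 by 3.09 ± 0.23 for Egr1, 3.76 ± 0.95 for Egr2, 5.32 ± 0.59 for Egr3 and 6.06 ± 1.03 for Egr4 (adjusted p = 8.67e-05, 0.0396, 0.000811 and 0.00665), next to 7.58% of all genes in either direction. The Egr4 difference was 5.07 without Rag2gc DPBS a. The Egr2 difference was lost without any 1 of the 4 Rag2gc libraries, either Lung2 Aeg-S/L library or Lung2 DPBS 2, the adjusted p reaching 0.166 without Rag2gc DPBS a. For ALT, IL33KO1 minus Lung1, Egr2 differed by 3.01 ± 0.22 (adjusted p = 2.13e-05), next to 13.5% of all genes, and the other 3 genes were not called. For Aeg-S/L, IL33KO1 minus Lung2, edgeR called 0 of 4 members, next to 8.61% of all genes. Egr2 there differed by 3.14 ± 0.93 (adjusted p = 0.0589), the 1 member with an unadjusted p under 0.05 and the 1 that DESeq2 called (adjusted p = 0.0192). Mouse Egr1 and Egr3 followed each other over the 16 treated groups with r = 0.888, across 16078 genes tested, as a description.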

How the data were processed

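RNA-seq libraries of 2 human lung epithelial lines and of mouse lung epithelial cells were analysed as deposited. The values are whole-number read counts per gene, deposited as one table per experiment; per the submitters' processing notes, HISAT2 2.2.1, SAMtools, featureCounts 2.0.2, R 4.2.2 and DESeq2 1.36.0 were used, with builds hg19 and mm10. The strand setting of the counting is not stated in them, and the library kit in the labels does not mark strand. Of counts between 1 and 10, 53.9% to 65.0% were even, depending on the experiment, so counting intervals may be too narrow.

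Each experiment was fitted on its own over all genes with edgeR 4.0.16 (R 4.3.3, limma 3.58.1): filterByExpr, TMM scaling, 1 coefficient per group, quasi-likelihood F tests and Benjamini-Hochberg adjustment over all genes tested, with a threshold of 0.05. Human identifiers were matched to names for 51996 of 57820, mouse identifiers for 0 of 55401. Lung4 held 2 lines without a gene identifier (3.0e-06% of counts), which were left out. Folds are ratios of mean CPM. Where groups are said not to overlap, this describes their libraries, and the share over all genes was not counted. Where a group held 0 counts, a bound was set at 3 counts over the group, and where it held 1 to 3, the ratio is given with an exact 95% interval; no change is given where both groups held 3 counts or fewer. Experiments were joined in 1 fit to test differences between changes. The fitting steps were tested on simulated counts.

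Alternatives were DESeq2 1.42.0, its size factors in edgeR, no filter on low counts, the replicate number as a block and leaving out each library. Same-numbered libraries were not shown to be paired, and 6 columns (IL33KO2 Lysenin and PlyA2EryB, Rag2gc DPBS) carry no number and are called a and b. All 8 members are given in every experiment. Of the lists of regulators and of reported targets, NAB1 and NAB2, regulators called in 4 or more human stimulus comparisons, and up to 4 targets called the same way most often are named; the 5 genes most like each human member are named by correlation. The members and lists were chosen with earlier results of these data known.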

Additional observations from a re-analysis of the deposited data

Results flagged for a closer look

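Under the same stimulus, 10 differences between the changes of 2 experiments passed the threshold of the joint edgeR fits. Each compares 2 experiments, which differ in line in the human pairs and in labelled genotype in IL33KO2 and Lung4, while Lung1 and Lung2 carry no genotype in the labels. Line, genotype and experiment cannot be told apart. The calls for EGR2 with Aeg-S/L, EGR1 with BAPTA-AM, Egr3 with LSL and Egr2 in Rag2gc were lost without some single libraries. The Egr4 difference rests on 2 counts in the Rag2gc DPBS group.

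Between the lines, the EGR2 change with Aeg-S/L was smaller in H292-2 than in H1437-3 (log2 difference -3.63). The EGR1 change from Aeg-S/L alone to Aeg-S/L with a chelator was more negative in H292-2 for BAPTA-AM (-1.25) and for EGTA (-3.59); the H292-2 BAPTA-AM columns do not name Aeg-S/L, which the labels give.

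Between the mouse experiments, the change with LSL was larger in IL33KO2 than in Lung4 for Egr2 (1.87) and Egr3 (1.75). The remaining 5 belong to differences chosen after the values were seen. The change with Aeg-S/L was higher in Rag2gc than in Lung2 for Egr1 (3.09), Egr2 (3.76), Egr3 (5.32) and Egr4 (6.06), and the Egr2 change with ALT was higher in IL33KO1 than in Lung1 (3.01). In these pairs the DPBS levels differed as well: mean Egr2 with DPBS was 159 CPM in Lung2 and 174 CPM in Lung1, beside 1.13 CPM in Rag2gc and 0.806 CPM in IL33KO1, and the part of these levels in the differences was not tested.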

How the results depend on the processing

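Of 98 changes and differences that edgeR called, 75 were called with every library left out in turn for which a value could be given, and 23 lost the call without at least 1 library. A further 39 values with a library left out, 18 of them for called changes, are not given, because a group then held 0 counts. The called changes kept their direction in all 819 values under the alternatives, of which 73 missed the threshold: 61 with a library left out, 5 with DESeq2, 5 with the replicate block, 1 with DESeq2 size factors and 1 without the filter on low counts. Changes that were not called gave 807 values, of which 49 passed the threshold and 51 changed sign. Of the 49, 22 passed without the filter on low counts, out of 92 values in that setting. Another 20 passed with a library left out, 6 with DESeq2 and 1 with the replicate block. The cause was not tested. Depth limits EGR2, EGR3 and EGR4 in the human controls, Egr4 in Lung4, IL33KO1, IL33KO2 and Rag2gc, and every group under 3 counts.

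Without the filter on low counts the number of members called was 4 for Aeg-S/L in Lung2 (3 with DESeq2), 2 for WT ALT in Lung3, 3 for aegl KO against WT ALT in Lung3, 1 for PlyA2EryB in Lung4 (1 with DESeq2), 2 for ALT in IL33KO1 and 2 for PlyA2EryB in IL33KO2. It was 2 for Tra against DPBS in H1437-1 (2 with DESeq2), and 2 each for BAPTA-AM and EGTA against DPBS in H292-2. Newly called without the filter were the Egr1 changes with Aeg-S/L in Lung2 (-0.61, and -0.54 with DESeq2), ALT in IL33KO1 (0.63) and PlyA2EryB in IL33KO2 (0.35). So were the EGR1 difference for WT ALT (-0.76) and the Egr1 differences of IL33KO2 and Lung4 for Lysenin (-0.68) and LSL (0.68), and of IL33KO1 and Lung1 for ALT (1.07). Among the other members in the human lines, EGR2 with Tra against DPBS (-5.09, and -4.64 with DESeq2), EGR4 with WT ALT in H292-1 (1.76), EGR3 with BAPTA-AM (4.49) and EGTA (4.46) against DPBS in H292-2, the EGR2 difference for BAPTA-AM (3.55) and the EGR3 difference for EGTA (-2.26) were newly called. The EGR1 difference for BAPTA-AM between the lines missed the threshold with DESeq2 (-1.24).

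With the replicate block, 2 members were called for aegs KO against WT ALT in Lung3, and 0 for ALT and 0 for Aeg-S/L in IL33KO1; EGR4 with WT ALT in H292-1 was newly called (adjusted p = 0.0432). Same-numbered libraries correlated between -0.15 and 0.47 over 9 pairs of H1437-1 (3 over 0.1), between -0.06 and 0.26 in H292-1, between -0.24 and 0.08 in Lung2 and between -0.10 and 0.10 in the other experiments with numbers. All 6 libraries of Lung1 and 6 of 9 of H1437-1 were closest to their own number. In the joint fits, a block of number within experiment, added after the values were seen, changed no call in the 7 differences whose groups all carry numbers: EGR1 was -1.24 for BAPTA-AM (adjusted p = 0.00487) and -3.54 for EGTA, and EGR2 -3.63 for Aeg-S/L (adjusted p = 0.0207). No paired analysis was possible because of missing numbers for Rag2gc and for Lysenin and PlyA2EryB in IL33KO2, with the differences that use them.

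With 1 library left out, the number of members called ran from 0 to 1 for Aeg-S in Lung2, 1 to 2 for WT ALT, 0 to 2 for aegs KO and 0 to 2 for aegl KO in Lung3, and 1 to 2 for aegs KO against WT ALT. It ran from 1 to 2 for each of Lysenin, PlyA2EryB and LSL in Lung4, and from 0 to 1 for ALT and for Aeg-S/L in IL33KO1. In IL33KO2 it ran from 1 to 2 for Lysenin, 0 to 2 for PlyA2EryB and 1 to 3 for LSL. It ran from 0 to 1 for Tra against DPBS in H1437-1 and from 1 to 2 for BAPTA-AM and for EGTA against DPBS in H292-2.

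In Lung2 the log2 changes with 1 library left out ran, for Aeg-S, from -2.15 to 0.55 (Egr2), -0.44 to 0.63 (Egr3) and -0.78 to 0.51 (Egr4), and for Aeg-L from -0.28 to 0.42 (Egr2), -0.10 to 0.58 (Egr3) and -0.49 to 0.52 (Egr4). In Lung3 they ran from -0.30 to 0.04 (Egr1) and -0.58 to 0.17 (Egr3) for WT ALT, from 0.39 to 0.72 (Egr1) and -0.08 to 0.46 (Egr2) for aegs KO, and from 0.17 to 0.50 (Egr1), -0.28 to 0.30 (Egr2) and -0.40 to 0.01 (Egr4) for aegl KO. Egr1 for aegs KO against WT ALT ran from 0.59 to 0.79, and for PlyA2EryB in Lung4 from -0.06 to 0.19. In IL33KO1, Egr3 ran from -0.78 to 0.72 with ALT and from -0.41 to 1.08 with Aeg-S/L, and Egr1 with Aeg-S/L from -0.70 to 0.46. In IL33KO2, Egr3 with Lysenin ran from -0.20 to 0.97, and Egr1 from -0.32 to 0.74 with Lysenin, -0.12 to 0.94 with PlyA2EryB and 0.56 to 1.62 with LSL; the lower ends are without DPBS 2 and the higher ends without DPBS 1.

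In the human lines EGR1 ran from -3.26 to -2.54 for Tra against DPBS in H1437-1, from -0.10 to 0.76 for Aeg-S and -0.004 to 0.31 for Aeg-L in H1437-2, and from -0.36 to 0.07 (aegs KO) and -0.11 to 0.04 (aegl KO) in H1437-4. It ran from -0.14 to 0.57 for aegl KO in H292-1. EGR2 ran from -2.55 to 0.31 for Aeg-L in H1437-2, -1.80 to 0.58 for aegl KO in H1437-4, -1.66 to 0.46 for aegs KO in H292-1 and -0.86 to 0.49 for EGTA against DPBS in H292-2. EGR4 against DPBS in H292-2 ran from -0.25 to 1.89 (BAPTA-AM) and -0.04 to 2.12 (EGTA).

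Among the differences between lines, EGR3 for WT ALT ran from -1.32 to 0.31, EGR1 for BAPTA-AM from -1.35 to -1.16 and EGR2 for EGTA from -0.91 to 0.37. For IL33KO2 minus Lung4, Egr1 ran from -1.09 to -0.04 (Lysenin), -0.17 to 0.89 (PlyA2EryB) and 0.28 to 1.33 (LSL), Egr2 from -0.13 to 0.73 and Egr4 from -2.27 to 0.04 (both PlyA2EryB). For IL33KO1 minus Lung2 with Aeg-S/L, Egr1 ran from -0.05 to 1.10 and Egr4 from -1.01 to 1.06, and for IL33KO1 minus Lung1 with ALT, Egr1 ran from 0.60 to 1.72 and Egr4 from -1.94 to 0.12.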
